A study of Homo sapiens with 6 samples.

Results

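Integrins are the cell surface receptors through which a fibroblast holds on to its matrix, and the 10 genes described here encode the subunits that such cells are known to use: ITGA1, ITGA2, ITGA3, ITGA4, ITGA5, ITGA11, ITGAV, ITGB1, ITGB3 and ITGB5. They were taken by gene name from a table of 14168 genes, and 10 of 10 were found and passed the filter on low values. RNA-seq of polyadenylated RNA was available for 6 libraries of BJ cells, a line of normal human fibroblasts from foreskin, labelled with a WT genotype and grown in RPMI medium with serum. The siAgrin group (3 libraries) had been given an siRNA against agrin and the siControl group (3 libraries) a control siRNA, so cells of both groups had been through siRNA treatment. The extraction protocol also mentions treatment with a compound, which no group label names, so whether the cells received one is not known. Agrin, the product of AGRN, is a large heparan sulfate proteoglycan of basement membranes. The sources used here give no siRNA sequences, doses or times and do not tell if a group's 3 libraries came from separate cultures, so p-values describe the spread between these libraries, which may be technical.

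Each integrin is a pair of 1 alpha and 1 beta subunit, and the pair decides the ligand. ITGB1 joins most alpha subunits: with ITGA1, ITGA2 or ITGA11 it forms receptors for collagen, with ITGA3 a receptor for laminin, with ITGA5 the classical fibronectin receptor, and with ITGA4 a receptor for VCAM1 and for a spliced segment of fibronectin. ITGAV joins ITGB1, ITGB3 or ITGB5 in receptors for ligands that carry the tripeptide RGD, such as vitronectin, fibronectin and the latent form of TGF-beta. The heads of the receptors are switched between bent and extended states by talins and kindlins, which bind the beta tail inside the cell.

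The libraries held 44321473 to 48246613 reads on listed genes in the siAgrin group and 42736368 to 44139864 in the siControl group. Values are given as scaled CPM, the deposited values, which are CPM-like but add up to between 1073188 and 1096534 per library. AGRN stood at 289.8, 297 and 265 scaled CPM in the siAgrin libraries and at 744, 804 and 790.1 in the siControl libraries, a log2 fold change of -1.46 (SE 0.05; limma, adjusted p = 3.19e-06). All 10 fibroblast markers searched were listed, with summed levels of 50043 to 52516 in the siAgrin libraries and 52124 to 54665 in the siControl libraries. Of these 10, S100A4 was called higher (log2 fold change 0.64) and COL1A1, LUM and PDGFRB lower (-0.27, -0.31 and -0.36), and 6 were not called. Of the markers of other cell types, KRT1 of keratinocytes and CDH5 of endothelium were at 0 in all 6 libraries and KRT5 averaged 0.432 and 0.343 in the siAgrin and siControl libraries. TEK, the other endothelial marker listed of 6 searched, averaged 8.45 and 7.52 and was not called. Of 4 mural markers 2 were listed, and CNN1 was not called. RGS5, at 4.18 in the siAgrin libraries and 6.11 in the siControl libraries, was called lower (-0.49, limma adjusted p = 0.0329). That call was lost without siControl replicates 1 or 3, with no filter and without the variance trend (limma adjusted p up to 0.127). Of the 8 keratinocyte markers, KRT10 and DSP passed the filter. KRT10 averaged 32.8 in the siAgrin libraries and 29.8 in the siControl libraries. It was called higher (log2 fold change 0.14, limma adjusted p = 0.0499), a call lost in 14 of 20 alternatives. DSP averaged 129 in the siAgrin libraries and 133 in the siControl libraries and was not called. The 8 markers together summed to 153 to 177 in the siAgrin libraries and 161 to 169 in the siControl libraries. Of 7 leukocyte markers the table lists CD14, at 2.30 to 2.72 in the siAgrin libraries and 1.32 to 1.70 in the siControl libraries, which was called higher (log2 fold change 0.59, limma adjusted p = 0.00390). The part of these markers in the results below was not tested. Libraries of the siAgrin group differed more among themselves than those of the siControl group, with a chi-square per degree of freedom of 10.2 to 24.8 for pairs of siAgrin libraries and 4.41 to 5.85 for pairs of siControl libraries. RNA was measured, so the amount of receptor at the cell surface is not known, and in a bulk sample fewer cells of a type and less RNA per cell cannot be told apart.

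Of the 10 subunits, 4 rose and 2 fell in the siAgrin libraries. ITGA2, ITGA3, ITGB3 and ITGA5 rose, ITGA4 and ITGA11 fell, and ITGA1, ITGAV, ITGB5 and ITGB1 did not pass the threshold. A gene was called at an adjusted p under 0.05 by limma, a linear model fitted over all 13206 genes with enough signal. The test called 28.7% of all genes tested, 15.2% as higher and 13.5% as lower. The median absolute log2 fold change was 0.44 over the 10 subunits and 0.11 over all genes tested, and the signed medians were 0.10 and -0.00012. The 3 siAgrin libraries did not overlap the 3 siControl libraries for 7 of the 10 subunits, against 45.2% of all genes tested. For a single gene the exact permutation test has a smallest possible p of 0.1 with these group sizes. Each of the collagen and RGD classes held subunits that passed and subunits that did not, and the collagen class held 1 that rose and 1 that fell.

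**Figure D1:**
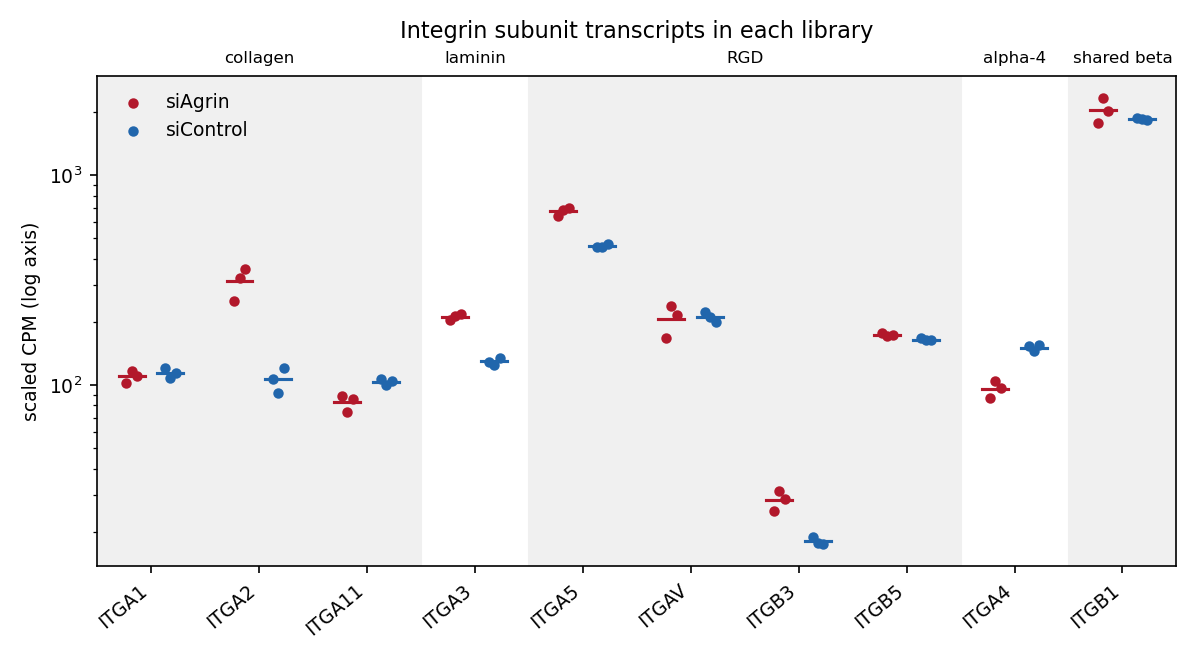
Level of each of the 10 integrin subunits in scaled CPM on a log axis, with 1 point per library, siAgrin left and siControl right within each gene, a short line at the group mean, and genes ordered by ligand class. The points of the 2 groups are apart for 7 genes and overlap for ITGA1, ITGAV and ITGB1, which is the most abundant subunit at 1781 to 2334 in the siAgrin libraries.

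Among the collagen receptors the 3 alpha subunits went different ways. ITGA2, the alpha subunit of the receptor also known as VLA-2 and as the collagen receptor of platelets, stood at 252, 326 and 359 scaled CPM in siAgrin replicates 1, 2 and 3, against 107, 91.4 and 121 in siControl replicates 1, 2 and 3. Every siAgrin library was higher than every siControl library, and siAgrin replicate 1 was the lowest of its group. Group means were 312 ± 54.4 in the siAgrin libraries and 106 ± 14.9 in the siControl libraries (SD, n = 3 each), a 2.93-fold higher level and a log2 fold change of 1.54 (SE 0.13; limma, adjusted p = 5.83e-05). ITGA1, the alpha subunit of a receptor that is known for binding collagen IV, was at 103, 117 and 111 in the siAgrin libraries and at 120.1, 108 and 115 in the siControl libraries. The groups overlapped. The log2 fold change of ITGA1 was -0.05, with a 95% interval from -0.18 to 0.07 (limma, adjusted p = 0.50). ITGA11, a receptor subunit for fibrillar collagen typical of mesenchymal cells, was at 89.0, 74.5 and 85.6 in the siAgrin libraries and at 107, 100.5 and 105 in the siControl libraries. It was lower in each siAgrin library than in any siControl library, a mean of 83.0 ± 7.60 against 104 ± 3.18 (SD, n = 3 each; log2 fold change -0.33, standard error 0.06, limma adjusted p = 0.00487).

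ITGA1 and ITGA2 lie side by side on the plus strand of chromosome 5 in GRCh38. ITGA1 (ENSG00000213949.8) spans positions 52787896 to 52959210 and ITGA2 (ENSG00000164171.10) positions 52989326 to 53094779, with 30115 bases between them. The neighbour on the other side of ITGA2 is MOCS2, an enzyme gene of molybdenum cofactor synthesis on the minus strand, whose end lies 899 bases away. MOCS2 did not pass the threshold either (log2 fold change 0.10, limma adjusted p = 0.0994). PELO, which encodes a factor that rescues stalled ribosomes, overlaps the start of ITGA1 on the same strand, and 2.56% of the exon bases of ITGA1 are also exon bases of PELO. PELO rose slightly, to 57.9 ± 0.388 in the siAgrin libraries against 49.6 ± 0.570 in the siControl libraries (SD, n = 3 each; log2 fold change 0.22, limma adjusted p = 0.00252), so reads at the shared bases are uncertain.

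The start windows of this adjacent pair are shown because ITGA2 was called and ITGA1 was not. Each window runs from 250 bases before to 50 bases after a gene start, 5′ to 3′ on the strand of the gene, from RefSeq on GRCh38.p14; 8 of the 10 subunits matched a window. Capitals mark matches to the 5 short motifs searched on both strands, which did not overlap each other in the windows printed. These were the GC box (GGGCGG), found in 45.0% of all 35116 windows, the CCAAT box (CCAAT, 34.6%), the TATA box (TATAAA, 11.5%), the AP-1 motif (TGANTCA, 7.71%) and the TEAD motif (GGAATG, 14.03%). The ITGA2 window is chr5:52989102-52989401 and the ITGA1 window, which is also the window of PELO, is chr5:52787666-52787965, both on the plus strand.
ITGA2: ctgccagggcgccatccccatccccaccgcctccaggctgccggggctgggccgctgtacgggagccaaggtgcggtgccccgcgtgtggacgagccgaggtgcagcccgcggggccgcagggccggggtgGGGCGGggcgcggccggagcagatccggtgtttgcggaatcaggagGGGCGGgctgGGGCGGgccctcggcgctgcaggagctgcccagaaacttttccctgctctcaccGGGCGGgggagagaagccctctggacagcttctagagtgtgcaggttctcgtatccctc
ITGA1: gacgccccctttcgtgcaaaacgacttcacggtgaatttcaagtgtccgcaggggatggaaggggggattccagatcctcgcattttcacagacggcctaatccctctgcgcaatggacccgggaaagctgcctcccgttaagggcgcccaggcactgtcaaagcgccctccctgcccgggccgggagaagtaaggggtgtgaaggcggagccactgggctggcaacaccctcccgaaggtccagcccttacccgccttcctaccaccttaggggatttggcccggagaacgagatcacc
The ITGA2 window held 4 GC boxes, which begin 119, 73, 63 and 9 bases before the start, and none of the other 4 motifs. The ITGA1 window held none of the 5. It is also the window of PELO, which was called higher, so the windows do not set a called gene against an uncalled one. The base composition differed as well, with 72.7% G and C in the ITGA2 window and 61.7% in the ITGA1 window, against a median of 58.7% over all windows. A match is a description of the letters and not a site of binding.

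The laminin-binding subunit rose. ITGA3, whose receptor binds laminins of basement membranes and which is known for its place in epithelia, was at 204, 213 and 219 scaled CPM in the siAgrin libraries, against 129, 125 and 135 in the siControl libraries. The groups were well apart and the 3 libraries of each lay close together, with coefficients of variation of 3.66% and 4.01%. Group means were 212 ± 7.75 in the siAgrin libraries and 129.7 ± 5.20 in the siControl libraries (SD, n = 3 each), a log2 fold change of 0.71 (SE 0.04; limma, adjusted p = 1.26e-05), which is the smallest p of the 10 subunits. ITGA3 (ENSG00000005884.17) lies on the plus strand of chromosome 17, from 50055968 to 50090481, and no annotated gene overlaps it. Its neighbour COL1A1, a chain of type I collagen that lies 92807 bases away, was at 12669 ± 585 in the siAgrin libraries and 15259 ± 934 in the siControl libraries (log2 fold change -0.27, limma adjusted p = 0.0429), a call described with the collagens below.

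Of the 4 RGD-class subunits, ITGA5 and ITGB3 rose, and ITGAV and ITGB5 did not pass. ITGA5, the partner of ITGB1 in the fibronectin receptor, was the most abundant alpha subunit, at 641, 682 and 695 scaled CPM in the siAgrin libraries, against 454, 454 and 469 in the siControl libraries. Every siAgrin library was above every siControl library. Group means were 673 ± 28.1 in the siAgrin libraries and 459 ± 8.41 in the siControl libraries (SD, n = 3 each), a log2 fold change of 0.55 (SE 0.04; limma, adjusted p = 4.00e-05). ITGAV, the alpha subunit of the vitronectin receptors, was at 168, 239 and 215 in the siAgrin libraries and at 222, 210.2 and 199 in the siControl libraries. The siControl range lay inside the siAgrin range, and siAgrin replicate 1 was the lowest of all 6 libraries. The log2 fold change of ITGAV was -0.04, with a 95% interval from -0.28 to 0.21 (limma, adjusted p = 0.829). Its sign turned without siAgrin replicate 1 (0.11), without siControl replicate 1 (0.0023) and with array weights (0.022).

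The beta partners of ITGAV differed from each other. ITGB3, the beta subunit of the vitronectin receptor and of the fibrinogen receptor of platelets, was the least abundant of the 10 genes, at 25.1, 31.2 and 28.6 scaled CPM in the siAgrin libraries and 18.8, 17.7 and 17.5 in the siControl libraries. The groups did not overlap, and the log2 fold change was 0.63 (SE 0.08; limma, adjusted p = 0.000434). Between 699 and 1339 reads per library lie behind them. An annotated gene on the same strand, AC068234.1, covers 51.6% of the exon bases of ITGB3, and its value was 0.619 to 0.649 of that of ITGB3 in the siAgrin libraries and 0.625 to 0.634 in the siControl libraries. AC068234.1 was called higher too (log2 fold change 0.63, limma adjusted p = 0.000686), and how the reads were divided between the overlapping genes is not known, so the level of ITGB3 is uncertain. ITGB5, the beta subunit of a second vitronectin receptor, was at 177, 170.4 and 174 in the siAgrin libraries and at 167, 164 and 163 in the siControl libraries. The groups did not overlap here either, but the difference of 5.51% did not pass (log2 fold change 0.08, 95% interval from -0.0028 to 0.16, limma adjusted p = 0.136). Of 20 alternatives, ITGB5 passed with array weights (limma adjusted p = 0.00784), and the adjusted p of all 20 ran up to 0.331.

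ITGA5 is the subunit whose window held an AP-1 match, 1 of 8 subunits with a window, and it is printed for that reason. ITGA5 (ENSG00000161638.10) spans positions 54395261 to 54419460 of chromosome 12 on the minus strand, and its RefSeq window is chr12:54419217-54419516 on that strand.
ITGA5: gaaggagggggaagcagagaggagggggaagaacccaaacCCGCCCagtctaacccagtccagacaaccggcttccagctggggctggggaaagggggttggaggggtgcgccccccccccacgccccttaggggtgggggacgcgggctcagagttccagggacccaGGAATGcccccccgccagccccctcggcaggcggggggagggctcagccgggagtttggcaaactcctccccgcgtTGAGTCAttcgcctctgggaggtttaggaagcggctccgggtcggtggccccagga
The AP-1 match begins 6 bases before the start, a GC box in the reverse direction begins 210 bases before it, and a TEAD match lies between them. GC boxes were present in windows of 4 of the 8 subunits, in ITGA2, ITGA5, ITGB1 and ITGB5, and so among subunits that rose and among subunits that did not pass.

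**Figure D2:**
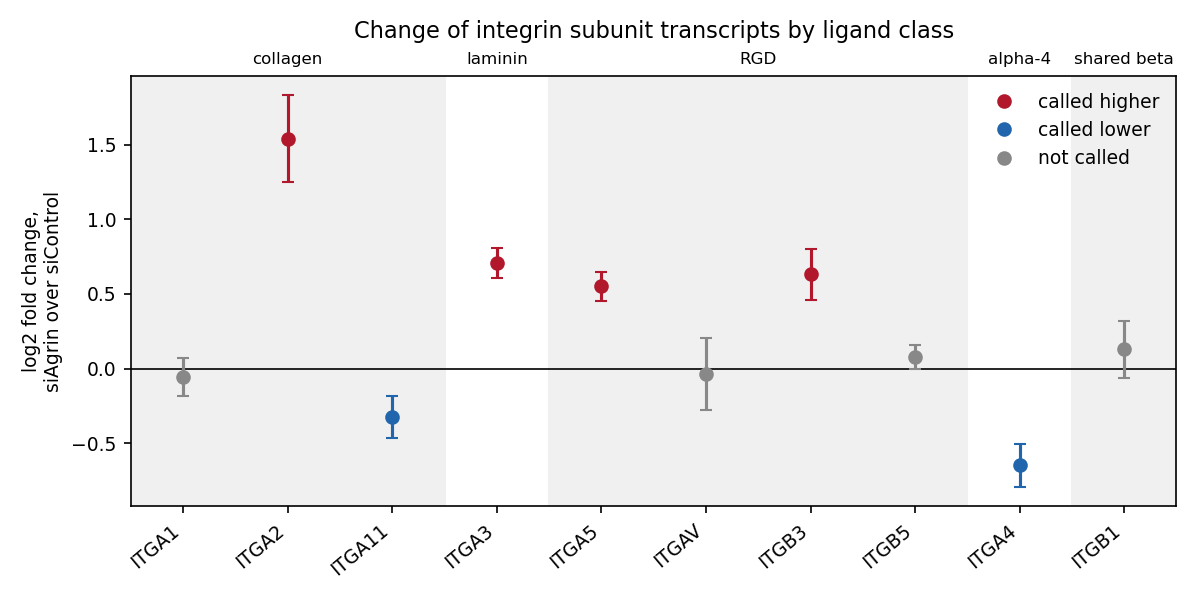
Log2 fold change of the 10 subunits, siAgrin over siControl, by ligand class; points are limma estimates, bars their 95% intervals, and colour shows the call at an adjusted p under 0.05. ITGA2 stands highest at 1.54 and ITGA4 lowest at -0.65, and 4 intervals cross 0.

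The subunit that binds VCAM1 fell. ITGA4, which is best known on leukocytes and is also found on mesenchymal cells, was at 87.1, 105 and 96.4 scaled CPM in the siAgrin libraries, against 153, 145 and 154 in the siControl libraries. All 3 siAgrin libraries lay below all 3 siControl libraries, with no overlap. Group means were 96.1 ± 8.88 in the siAgrin libraries and 151 ± 5.33 in the siControl libraries (SD, n = 3 each), a log2 fold change of -0.65 (SE 0.06; limma, adjusted p = 0.000132). ITGA4 (ENSG00000115232.13) lies on the plus strand of chromosome 2, from 181457202 to 181536187, and neither an overlapping gene nor a listed coding gene lies within 250 kb of it. Its window, chr2:181457136-181457435 on the plus strand, is shown as that of the subunit with the largest decrease.
ITGA4: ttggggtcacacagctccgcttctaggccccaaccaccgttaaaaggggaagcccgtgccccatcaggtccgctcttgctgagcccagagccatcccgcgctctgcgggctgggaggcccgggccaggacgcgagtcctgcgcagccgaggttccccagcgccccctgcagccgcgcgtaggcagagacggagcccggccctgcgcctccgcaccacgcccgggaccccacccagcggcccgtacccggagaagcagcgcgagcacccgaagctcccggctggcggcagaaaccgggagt
It held none of the 5 motifs, with 72.3% G and C.

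The shared beta subunit did not pass the threshold. ITGB1 was at 1781, 2334 and 2027 scaled CPM in the siAgrin libraries and at 1885, 1864 and 1838 in the siControl libraries. siAgrin replicate 1 was the lowest and siAgrin replicate 2 the highest of all 6 libraries, with a coefficient of variation of 13.5% in the siAgrin group and 1.26% in the siControl group. The log2 fold change of ITGB1 was 0.13, with a 95% interval from -0.07 to 0.32 (limma, adjusted p = 0.295). It passed without siAgrin replicate 1 (0.22, limma adjusted p = 0.0277) and with array weights (0.12, limma adjusted p = 0.0130), and over 20 alternatives its adjusted p ran from 0.0130 to 0.722. ITGAV and ITGA2 were the other subunits with a wide spread in the siAgrin group, at coefficients of variation of 17.4% each, and in ITGA2 the siControl group varied by 13.98% as well. ITGB5 varied by 1.90% in the siAgrin group and 1.38% in the siControl group.

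Divided by exon length, the order of the subunits changed around ITGA2 and ITGA4. In the siAgrin libraries the order of the mean scaled CPM per kb of exon was ITGB1 (341), ITGA5 (88.8), ITGA2 (39.5), ITGB5 (26.9), ITGAV (25.2), ITGA3 (21.6), ITGA4 (12.2), ITGA11 (7.64), ITGB3 (6.43) and ITGA1 (5.93). In the siControl libraries it was ITGB1 (309.8), ITGA5 (60.6), ITGAV (25.6), ITGB5 (25.5), ITGA4 (19.1), ITGA2 (13.4), ITGA3 (13.2), ITGA11 (9.57), ITGA1 (6.16) and ITGB3 (4.10). ITGA2 thus stood above ITGB5, ITGAV and ITGA4 in the siAgrin libraries and below them in the siControl libraries. Neighbours in the order whose libraries overlapped were ITGB5 with ITGAV, ITGAV with ITGA3, ITGA11 with ITGB3 and ITGB3 with ITGA1 in the siAgrin group, and ITGAV with ITGB5 and ITGA2 with ITGA3 in the siControl group. The lengths are the union of all annotated exons, from 4.394 kb for ITGB3 to 18.566 kb for ITGA1, and not those of the transcripts these cells make.

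Taking the 7 alpha subunits per kb as 1 pool, the collagen class made up a larger part of it and ITGA4 a smaller part. The collagen class held 25.0%, 26.1% and 28.0% of the pool in siAgrin replicates 1, 2 and 3, against 19.95%, 18.6% and 20.7% in siControl replicates 1, 2 and 3. Within it ITGA2 was 74.1% ± 3.63 of the collagen class in the siAgrin libraries and 45.9% ± 2.99 in the siControl libraries (SD, n = 3 each). ITGA4 held 6.06% ± 0.304 of the pool in the siAgrin libraries and 12.9% ± 0.116 in the siControl libraries, and ITGA3 held 10.8% ± 0.516 and 8.96% ± 0.181 (SD, n = 3 each). The RGD class of ITGA5 and ITGAV held 56.8% ± 0.961 in the siAgrin libraries and 58.4% ± 1.26 in the siControl libraries, with overlapping groups (exact permutation p = 0.2). As shares of the whole pool, ITGA5 took 43.2% to 46.4% in the siAgrin libraries and 40.2% to 41.8% in the siControl libraries. ITGAV took 11.2% to 13.9% and 16.1% to 18.1% of the pool. The pool itself averaged 201 scaled CPM per kb in the siAgrin libraries and 148 in the siControl libraries. A share can therefore fall where the level was not called, as for ITGAV, or fall by more than the level, as for ITGA4. The other 3 classes and the ITGA2 share did not overlap between the groups, with an exact two-sided permutation p of 0.1 each, the smallest that 3 against 3 allows, and 0.117 after Benjamini-Hochberg adjustment over 7 such comparisons. These shares do not depend on how the libraries were scaled, but they do depend on the lengths: with the longest transcript of each gene, the RGD class was 1.40 percentage points higher in the siAgrin group whereas it was lower with the union of exons (a difference of -1.58).

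The summed alpha subunits were higher relative to ITGB1 in the siAgrin libraries. The 7 alpha subunits summed to 182, 208 and 212 scaled CPM per kb in the siAgrin libraries, against 149, 143 and 151 in the siControl libraries. The 6 alpha subunits other than ITGAV, which pair with ITGB1, summed to 0.547, 0.462 and 0.550 of the ITGB1 level per kb in the siAgrin libraries and to 0.390, 0.379 and 0.413 in the siControl libraries. In both measures each siAgrin library was above each siControl library (exact permutation p = 0.1 each, adjusted 0.117). ITGB1 transcripts per kb were thus above the summed transcripts of these alpha subunits in all 6 libraries.

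**Figure D3:**
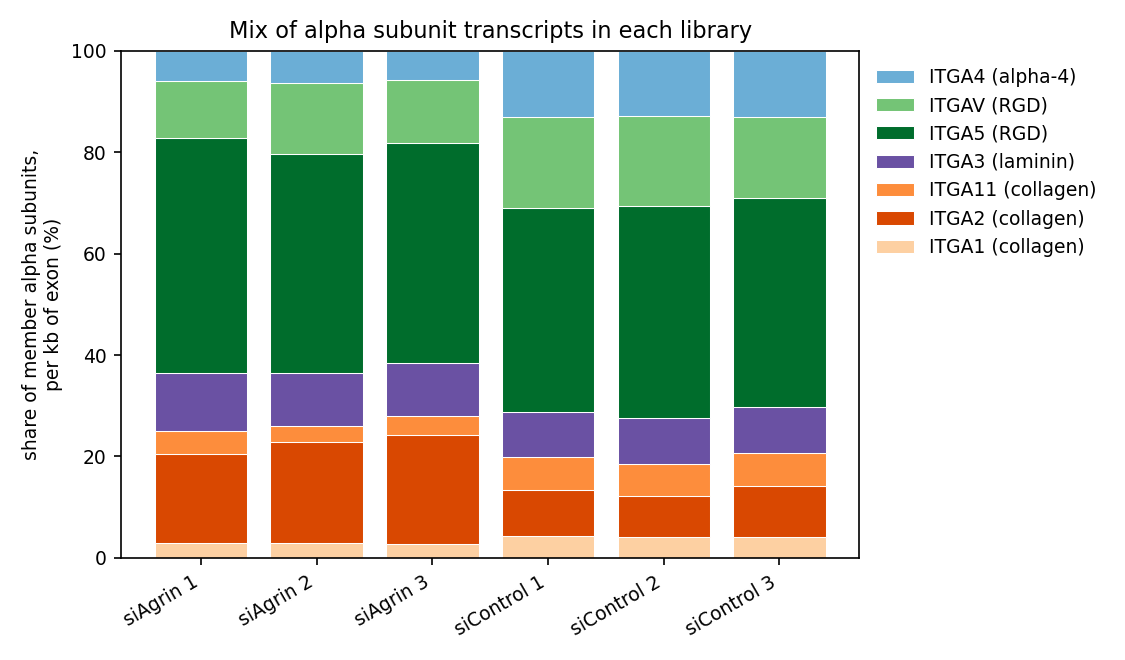
Share of each of the 7 alpha subunits, in percent of their summed scaled CPM per kb of exon, as 1 stacked bar per library with siAgrin left and siControl right. ITGA2 takes 17.5% to 21.4% in the siAgrin libraries and 8.07% to 10.2% in the siControl libraries, and ITGA4 5.76% to 6.37% and 12.8% to 13.0%.

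The other integrin genes tested did not pass the threshold, though 3 of them did under some alternatives. The table lists 8 of 16 searched, and 5 were tested. ITGA8, an RGD-binding partner of ITGB1, averaged 86.2 ± 10.1 scaled CPM in the siAgrin libraries and 76.2 ± 4.81 in the siControl libraries (log2 fold change 0.17, limma adjusted p = 0.138). ITGA6, a laminin-binding subunit, averaged 51.5 ± 9.84 and 47.6 ± 1.32 (0.10, adjusted p = 0.535), and ITGAE, an epithelium-binding subunit of lymphocytes, 15.8 ± 0.323 and 16.2 ± 0.619 (-0.04, adjusted p = 0.608; SD, n = 3 each). The other tested genes were near the filter. ITGA10, the remaining collagen-binding alpha subunit, averaged 3.05 and 2.16 in the siAgrin and siControl libraries (0.43, limma adjusted p = 0.164), and ITGB4, the laminin-binding partner of ITGA6, 1.60 and 2.31 (-0.42, limma adjusted p = 0.0545). Leaving out 1 library brought some past the threshold: ITGA8 without siAgrin replicate 1 (limma adjusted p = 0.0197), ITGA10 without siAgrin replicate 2 (0.0326), and ITGB4 without siAgrin replicate 2 (0.0124) or siControl replicate 3 (0.0378). All 3 also passed with array weights (adjusted p = 8.32e-05, 0.000646 and 9.86e-05), ITGA10 and ITGB4 with the replicate number as a block (0.0125 and 0.0164), and ITGB4 by edgeR (0.0499) and after rescaling without mitochondrial and top genes (0.0427). With gene-by-gene array weights the adjusted p was 0.00454 for ITGA8, 0.0168 for ITGA10 and 0.00355 for ITGB4. ITGB6, ITGB7 and ITGB8, which pair with ITGAV or ITGA4 elsewhere, averaged under 1 in both groups.

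Collagen chains, the ligands of the first class, moved in both directions. Counts of called genes in this and the following lists stand beside 15.2% of all genes tested called higher and 13.5% called lower. Of 10 collagen chains tested, 2 rose and 3 fell, with a median log2 fold change of -0.02, and 2 rose and 1 fell without siAgrin replicate 3 or siControl replicate 2. COL6A1 and COL6A2, chains of microfibril-forming collagen VI, rose (0.62 and 0.50; limma adjusted p = 6.76e-05 and 0.000323), COL6A1 to 4827 ± 78.3 in the siAgrin libraries against 3140.1 ± 36.6 in the siControl libraries (SD, n = 3 each). COL4A2, a basement membrane chain, fell (-0.28, limma adjusted p = 0.0102), a call lost without siAgrin replicate 3 (0.0529) or siControl replicate 2 (0.0503). COL1A1 was lower by 0.27 on the log2 scale, and that call was lost without siAgrin replicate 3 or any 1 siControl library (adjusted p from 0.0503 to 0.171) and with no filter (0.205). It was also lost with quantile normalization, which gives every library the same distribution of values. There the log2 fold change of COL1A1 was 3.06e-15. A gene that keeps its rank in every library is given the same value in each by that method. This loss therefore does not show whether COL1A1 changed.

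Laminin chains mostly rose. Of 10 tested, 6 were higher and 1 lower, with a median of 0.33. LAMB3 and LAMA3, a beta and an alpha chain of epithelial basement membranes, rose by 0.67 and 0.63 on the log2 scale (limma adjusted p = 2.30e-05 and 0.00350), both from low levels. LAMB3 averaged 34.9 ± 1.18 in the siAgrin libraries and 21.7 ± 0.446 in the siControl libraries, and LAMA3 12.7 ± 1.49 and 8.05 ± 1.24 (SD, n = 3 each). LAMA2, the alpha chain of muscle laminin, fell to 193 ± 5.90 in the siAgrin libraries, against 302 ± 16.8 in the siControl libraries (-0.64, limma adjusted p = 3.00e-05). LAMA1, a chain of embryonic laminin at 4.64 ± 0.0712 in the siAgrin libraries and 3.55 ± 0.609 in the siControl libraries (SD, n = 3 each; 0.36, limma adjusted p = 0.0376), lost its call in 7 of 19 alternatives, among them those without siAgrin replicates 1 or 3 and without siControl replicates 1 or 2 (adjusted p up to 0.127).

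Ligands of RGD and alpha-4 receptors went both ways. Of 12 RGD-class ligands tested, 4 rose and 5 fell, with a median of 0.02. These counts fell to 3 and 2 without siAgrin replicate 3, 3 and 1 without siControl replicate 1, and 2 and 1 without siControl replicate 2. TNC, the matrix protein tenascin C, was at 1217, 1377 and 1652 in the siAgrin libraries and 718, 593 and 787 in the siControl libraries (1.01, limma adjusted p = 0.000394), and LTBP1, which tethers latent TGF-beta to the matrix, rose by 0.46 (limma adjusted p = 0.000426). CTGF, a matricellular protein, fell (-0.87, limma adjusted p = 0.000348), as did the ligand TGFB3 (-0.49, limma adjusted p = 0.0144), whose call was lost without siControl replicate 1 (0.0723) or 2 (0.0529). Of 3 alpha-4 ligands tested, VCAM1 and FN1 fell. VCAM1 was at 5.36, 6.26 and 3.75 in the siAgrin libraries and 12.4, 12.9 and 10.4 in the siControl libraries (-1.16, limma adjusted p = 0.000701), so ITGA4 and VCAM1 were both lower. FN1, fibronectin, fell to 9999 ± 585 in the siAgrin libraries, against 12428 ± 498 in the siControl libraries (SD, n = 3 each; -0.31, limma adjusted p = 0.0169), while ITGA5 was higher. The FN1 call was lost without siAgrin replicate 3 (0.0868), siControl replicate 1 (0.0902), siControl replicate 2 (0.0662) or with no filter (0.107). It was also lost with quantile normalization, where the log2 fold change of FN1 was 1.25e-15. As for COL1A1, such a value can follow from an unchanged rank, so this loss does not show whether FN1 changed.

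Genes that switch integrins on or off changed by small amounts. Of 8 activators tested, 1 rose and 3 fell, with a median of -0.05. FERMT2, the kindlin of fibroblasts, fell (-0.24, limma adjusted p = 0.0147), as did RAP1B (-0.23, 0.00726), a small GTPase that recruits talin, and RAPGEF1 (-0.22, 0.00722), an exchange factor of that GTPase, while APBB1IP, which links it to talin, rose (0.23, 0.0296). The call of FERMT2 was lost without siAgrin replicate 3 or siControl replicates 1 or 2 (adjusted p from 0.0620 to 0.0716), and that of APBB1IP without any 1 siControl library (0.0809 to 0.103) and with no filter (0.0577). Of 5 inhibitors, ITGB1BP1, which competes with talin for the ITGB1 tail, and SHARPIN, which binds alpha tails, rose (0.16 and 0.20; limma adjusted p = 0.0134 and 0.0139). Both calls were lost without siAgrin replicate 3 (0.0641 and 0.0625) or siControl replicate 1 (0.0775 and 0.0713).

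Adaptors, kinases and trafficking genes were called in both directions, at shares near the 28.7% of all genes tested. Of 15 adaptors and kinases at integrin tails, 1 rose and 4 fell, with a median of -0.03, and 0 rose and 3 fell without siAgrin replicate 3 or any 1 siControl library. TNS3, a tensin that binds beta tails, fell most (-0.56, limma adjusted p = 0.000101), then LIMS2 and LIMS1 (-0.39 and -0.35; limma adjusted p = 0.000617 and 0.00101), which encode the PINCH proteins that bind the ILK kinase. ILK itself rose (0.15, limma adjusted p = 0.0189), a call lost without siAgrin replicate 3 or any 1 siControl library (adjusted p from 0.0575 to 0.0907). Of 13 trafficking genes, 1 rose and 3 fell, with a median of 0.04, and 0 rose and 2 fell with any 1 of the same 4 libraries left out. RAB21 (-0.38, limma adjusted p = 0.000377), a GTPase of integrin uptake, and DAB2 (-0.30, 0.00145), a clathrin adaptor that takes up integrins, were lower. VPS35 (-0.12) and RAB11A (0.13) of recycling lost their calls without siAgrin replicate 3 or any 1 siControl library (adjusted p up to 0.115 and 0.111), both also lost them without the variance trend, RAB11A after rescaling and VPS35 with the replicate number as a block (0.0585). Among 10 membrane partners 6 rose and 1 fell, with a median of 0.16, against 15.2% and 13.5% of all genes tested. Without siAgrin replicate 3 or without siControl replicate 1, 3 rose and 1 fell. CAV1, caveolin 1, rose to 2101 ± 174 in the siAgrin libraries, against 1367 ± 23.8 in the siControl libraries (SD, n = 3 each; 0.62, limma adjusted p = 0.000175), with the tetraspanin CD82 (0.39, 0.000329) and the urokinase receptor PLAUR (0.35, 0.000747), while SLC3A2, a partner of beta tails and amino acid transporters, fell (-0.31, 0.00532).

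**Figure D4:**
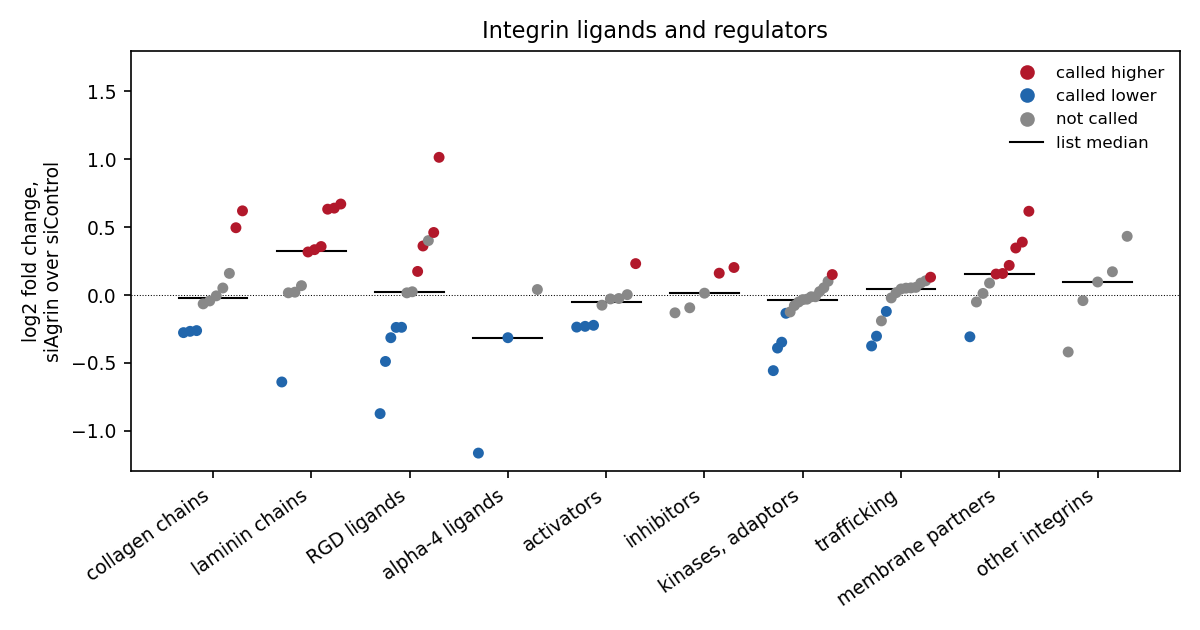
Log2 fold change, siAgrin over siControl, of each tested gene in 10 lists of integrin ligands, regulators and other integrins, coloured by call at an adjusted p under 0.05, with a line at each list median. The list medians run from -0.31 for the 3 alpha-4 ligands to 0.33 for the laminin chains, and 0 of 5 other integrin genes were called.

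Profiles over the 6 libraries were compared by the root mean square difference of log2 values set to a siControl mean of 0, over 11335 genes (minimum mean 5). The genes most like ITGA2 were C3, the complement component (difference 0.15), SPHKAP, an anchoring protein (0.16), and CLDN1, a tight junction protein (0.21), all 3 called higher, with log2 fold changes of 1.47, 1.33 and 1.27. Most like ITGA4 were PANK1, a kinase of coenzyme A synthesis, and ENTPD7, a nucleotidase, at differences of 0.046 and 0.049 and with log2 fold changes of -0.63 and -0.64. Most like ITGB1 were the adhesion receptor NECTIN3, the mTOR complex subunit RICTOR and DENND1B, at differences of 0.011, 0.022 and 0.024. The 3 shared with ITGB1 the spread within the siAgrin group and were not called, NECTIN3 at 134 ± 17.8 in the siAgrin libraries and 121 ± 0.256 in the siControl libraries (SD, n = 3 each; limma adjusted p = 0.239). Such matches over 6 libraries are descriptions. Fold changes and spreads near those of the subunit follow from how the genes were picked.

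Of the 30 tested coding genes within 250 kb of a subunit and not themselves subunits, 7 were called higher and 4 lower. Over all genes tested 28.7% were called, 15.2% as higher and 13.5% as lower. Of the 7, PELO and AC068234.1 share exon bases with a subunit, so they are not separate from it. The higher ones were PELO beside ITGA1, SAMD14 near ITGA3 (0.36, limma adjusted p = 0.00463), SMUG1, NFE2 and COPZ1 near ITGA5 (0.23, 0.37 and 0.15), CORO2B near ITGA11 (0.42, limma adjusted p = 0.00205) and AC068234.1 over ITGB3. The lower ones were COL1A1 near ITGA3, CALML4 near ITGA11 (-0.35, limma adjusted p = 0.0187), FAM171B near ITGAV (-0.37, limma adjusted p = 0.00659) and SLC12A8 near ITGB5 (-0.57, limma adjusted p = 0.00171). Both directions were thus found near ITGA3, which was higher, and near ITGA11, which was lower.

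The 6 calls held under each of 20 alternatives, including those that left out 1 library. ITGA2 ranged from 1.44 to 1.75 on the log2 scale, ITGA3 from 0.68 to 0.75, ITGB3 from 0.56 to 0.71, ITGA5 from 0.52 to 0.60, ITGA11 from -0.38 to -0.25 and ITGA4 from -0.71 to -0.58. The largest adjusted p among them was 0.0282, for ITGA11. ITGA1 and ITGAV passed in 0 of the 20, ITGB5 in 1 and ITGB1 in 2.

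**Figure D5:**
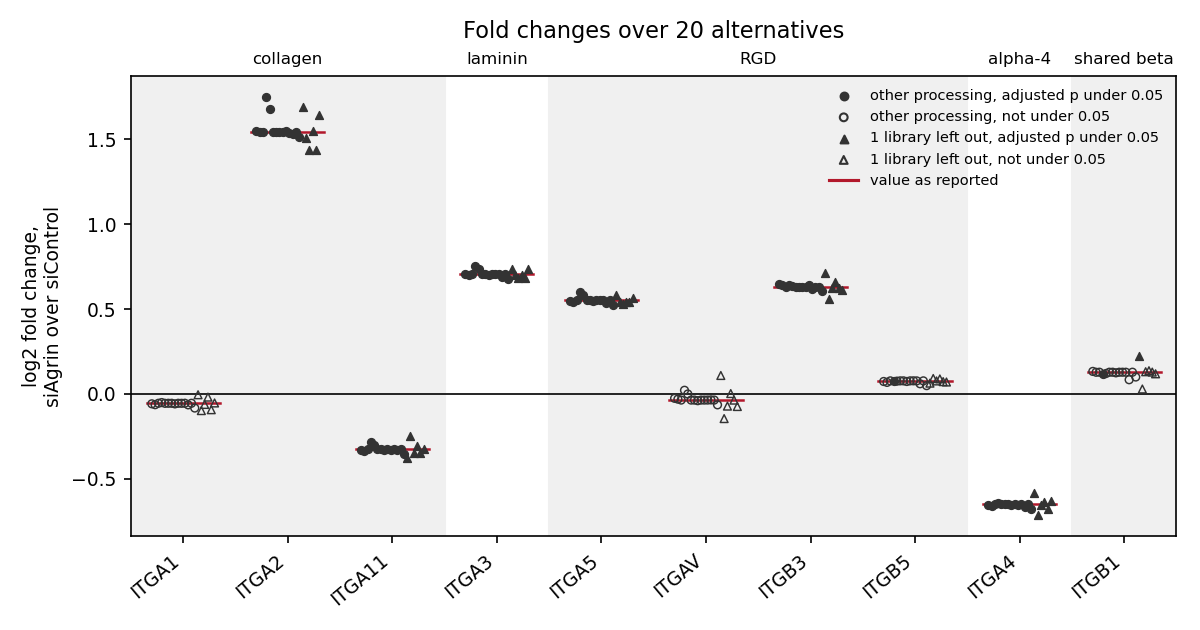
Log2 fold change of each subunit, siAgrin over siControl, under 20 alternatives: circles are other processing, triangles fits that leave out 1 library, filled where the adjusted p is under 0.05, and the line is the value as reported. The 6 called subunits are filled throughout, ITGAV lies on both sides of 0, ITGB1 has 2 filled points, at 0.12 and 0.22, and ITGB5 has 1, at 0.075.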

How the data were processed

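RNA-seq of 3 siAgrin and 3 siControl libraries of BJ cells was used, with groups and replicate numbers from the labels. The tools named in the submitters' processing notes are edgeR, HTSeq, SAMtools and STAR 2.6.1d, and the build is hg38; the sources used here give no annotation release, strand setting, gene filter or scaling factors. The deposited signal, 1 column per library, sums to between 1073188 and 1096534, and 100% of its values were whole multiples of 1 step per library (tolerance 0.01 of a read), so whole reads were recovered; 3 reads correspond to 0.0681 to 0.0761. The design had assumed CPM, and the same test was kept.

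The 13206 genes that reached 1 in 3 or more libraries entered limma 3.58.1 (R 4.3.3) as log2(value + 0.5), with a variance trend and Benjamini-Hochberg adjustment over all of them, two-sided. Fold changes on this scale are understated for low genes. On the recovered reads edgeR 4.0.16 called 1844 genes higher and 1887 lower; DESeq2 1.42.0 was also run.

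The members, gene lists and rules were chosen with earlier results of these data known. Named were the 10 subunits, AGRN, other integrin genes, up to 4 called genes per list with the largest change, the 3 nearest profiles, overlapping genes and neighbours, apart from 2 genes that are not reported here; markers, the motifs and the windows printed were chosen after their values were seen. Coordinates and exon lengths are from GENCODE release 29 on GRCh38, where 14144 of 14168 symbols matched 1 gene; antisense overlaps are uncertain. Window sequences are from RefSeq, GRCh38.p14, used for their letters. Python 3.11.15 and matplotlib 3.10.9 drew the figures.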

Additional observations from a re-analysis of the deposited data

How the results depend on the processing

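The number of subunits called was 4 higher and 2 lower under every alternative except 2: it was 5 and 2 without siAgrin replicate 1, and 6 and 2 with limma's array weights, where ITGB1 and ITGB5 passed. The estimate of these weights stopped before it converged and gave siAgrin replicate 3 a weight of 18.04, against 0.23 to 1.25 for the other libraries. A gene-by-gene estimate, chosen after seeing that result, gave that library 2.69 and called 4 higher and 2 lower. Over all genes, the higher and lower calls numbered 4114 and 4152 with the first weights, 3040 and 2942 with the gene-by-gene weights, and 1020 and 909 at an adjusted p under 0.01. Leaving out 1 library gave 1124 to 2551 higher and 947 to 2588 lower, with 1259 and 1120 without siAgrin replicate 3, 1124 and 947 without siControl replicate 1, and 1257 and 1067 without siControl replicate 2; the cause was not tested. Rescaling without mitochondrial genes and the top 10 by level left 1574 higher and 2260 lower, against 2005 and 1783 as reported, with a shift of -0.03 in the median. ITGAV ran from -0.15 to 0.11 when 1 library was left out, with the opposite sign without siAgrin replicate 1 (0.11), without siControl replicate 1 (0.0023) and with the first array weights (0.022).

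With the longest transcript as the length, and with no length correction, the siAgrin minus siControl difference in share of the alpha pool was 4.50 and 4.33 percentage points for the collagen class, 2.69 and 2.37 for the laminin class and -8.59 and -6.15 for ITGA4, against 6.60, 1.83 and -6.86 per kb of all exons; for the RGD class it was 1.40 and -0.55, against -1.58, where only the lengths differ. Leaving out 1 library moved these differences to 5.79 to 7.27, 1.54 to 2.01, -7.01 to -6.71 and -2.17 to -0.91. Whether the replicate numbers pair the libraries could not be decided with 3 libraries per group. Deviations of same-numbered libraries from their group means correlated at -0.04, 0.17 and 0.20 over genes. siAgrin replicates 2 and 3 correlated best with their own number, and siAgrin replicate 1 did not. With the replicate number as a block, 4 subunits were higher and 2 lower, and 1905 genes were higher and 1775 lower in all.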
